A study of Mus musculus with 17 samples.

Results

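The genes described here encode proteins that transport chloride or regulate its transport. The chloride gradient across neuronal membranes sets the sign of the current that flows through GABA-A receptors. The set holds 7 genes chosen by name, with earlier results of these data known. They are the cation-chloride cotransporters Slc12a2 (NKCC1), Slc12a5 (KCC2) and Slc12a7 (KCC4), the ClC genes Clcn2 and Clcn3, and the kinases Wnk1 and Stk39 (SPAK). All 7 were found by gene identifier among the 55450 genes counted, and all 7 were among the 17615 genes that passed the filter on low counts. RNA of 17 hippocampal samples from adult mice, male and female, was sequenced in 3 groups. Epileptic mice had received kainic acid in the right amygdala, which set off status epilepticus that was stopped with diazepam and was followed by spontaneous seizures. Control mice were sham controls without epilepsy. All mice carried AAV9 vectors in the right ventral hippocampus with a doxycycline-inducible dCas9A, a Cas9 that cannot cut DNA fused to an activator of transcription, under a transactivator driven by the Camk2a promoter and therefore meant for excitatory neurons, and all were fed doxycycline. The groups were 5 control sgLacZ, 6 epileptic sgLacZ and 6 epileptic sgKcna1 libraries, where sgKcna1 guides the activator to the promoter of Kcna1, a potassium channel gene, and sgLacZ has no target in the mouse. Mice without epilepsy that received sgKcna1 were not analysed here. The labels number the samples across the series without naming the animals, so the P values measure the spread between these samples. The sample titles do not state whether the injected or the contralateral hippocampus was sequenced.

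When a GABA-A receptor opens, chloride flows along its gradient. NKCC1 carries chloride into the cell with sodium and potassium, whereas KCC2, which is restricted to neurons, uses the potassium gradient to carry chloride out, so that the balance between these transporters decides whether GABA inhibits or depolarizes. The kinase WNK1 activates SPAK, which phosphorylates both kinds of cotransporter, raising NKCC1 activity and lowering KCC activity, and a loss of KCC2 with a gain of NKCC1 has been described in epileptic hippocampal tissue. ClC-2 is a channel of the plasma membrane that opens on hyperpolarization, and ClC-3 is a chloride-proton exchanger of endosomes and synaptic vesicles.

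The libraries held between 11839240 and 28311328 reads in genes, so that 3 reads, taken as the floor of detection, stood for 0.106 to 0.253 CPM (counts scaled to a common library size, elsewhere with TMM factors of edgeR). Such a floor covers counting error only. The share of unmapped reads ran from 19.5% to 27.7% in control sgLacZ, from 11.0% to 24.1% in epileptic sgLacZ and from 19.1% to 41.5% in epileptic sgKcna1 libraries. By sex read from the counts, 2 of 5 control sgLacZ, 4 of 6 epileptic sgLacZ and 2 of 6 epileptic sgKcna1 libraries were female. The targeted gene, Kcna1, lay between 25.5 and 44.0 CPM in control sgLacZ, between 16.9 and 56.7 in epileptic sgLacZ and between 13.9 and 133 in epileptic sgKcna1 libraries, and an increase with sgKcna1 was not detectable, with a log2 fold change against epileptic sgLacZ of 0.32 (SE 0.47, edgeR adjusted P = 0.706). It was the single library of replicate 12 that gave the 133 CPM, and without it the log2 fold change was -0.65. That library also had the largest share of unmapped reads of the series, 41.5%, the fewest reads in genes, 11839240, and the fewest genes with a read, 20598. Markers of neurons, including Camk2a, Slc17a7 and Neurod6, were present in every library, and their sum over 7 genes was 7240 to 7794 CPM in control sgLacZ, 6854 to 8796 in epileptic sgLacZ and 7012 to 8495 in epileptic sgKcna1 libraries. In epileptic sgLacZ against control sgLacZ libraries, edgeR called 1 of 7 neuronal, 2 of 7 astrocyte and 1 of 7 microglial markers, all higher, and 0 of the interneuron, oligodendrocyte, oligodendrocyte precursor, vascular and choroid plexus markers. Over all tested genes edgeR called 11.0%, and 34.7% had an unadjusted P under 0.05. At that level the neuronal list had 1 gene higher and 2 lower, the astrocyte list 3 higher and the microglial list 1 higher. DESeq2 called 2, 3 and 1 genes of those 3 lists (20.6% of all genes), and limma voom called 3, 3 and 3 (41.4%). Median log2 fold changes of the 3 lists were -0.05, 0.18 and -0.12. The 5 lists without an edgeR call had 2, 1, 1, 1 and 0 genes at an unadjusted P under 0.05. DESeq2 called 2, 0, 0, 0 and 0 of them, and limma voom called 2, 1, 1, 2 and 1. The 2 interneuron markers were Sst and Pvalb, both lower, chosen here after their values were seen. The others of that list did not go 1 way. In control and epileptic sgLacZ libraries, mean Gad1 was 339 and 312 CPM, Gad2 93.6 and 113, and Slc32a1 75.5 and 83.4. The sum of the 5 interneuron markers was 1196 to 1503 CPM in control sgLacZ, 801 to 1354 in epileptic sgLacZ and 969 to 1427 in epileptic sgKcna1 libraries. Sst alone had a mean of 718 CPM in control sgLacZ, where the mean sum was 1339. The part of these cell types in the values of the chloride genes was not tested. None of the 8 marker lists held a gene at 0 in all libraries of a group. In bulk tissue, fewer cells of a type and less RNA per cell cannot be told apart.

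The 7 genes spanned a wide range of levels. Per kilobase of the longest protein-coding transcript, Slc12a5 was the most abundant in control sgLacZ libraries, at 62.4 ± 3.25 CPM per kb (SD, n = 5). Clcn3 followed at 25.3 ± 0.923 and Stk39 at 23.3 ± 4.00 CPM per kb, and these neighbours overlapped in range. Slc12a2 stood at 17.05 ± 3.502 CPM per kb, overlapping Stk39 but not Wnk1, which had 9.61 ± 0.587. Clcn2, at 7.93 ± 1.61 CPM per kb, overlapped Wnk1, whereas Slc12a7, at 0.787 ± 0.0972, lay below all the others. Reads that Clcn2 shares with its neighbour Fam131a were not counted, but the whole transcript length was used. The level per kb and the rank of Clcn2 may therefore be too low. Slc12a7 was counted with only 41 to 319 reads per library, against 4241 to 19647 for Slc12a5, so its values carry more counting error.

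**Figure D1:**
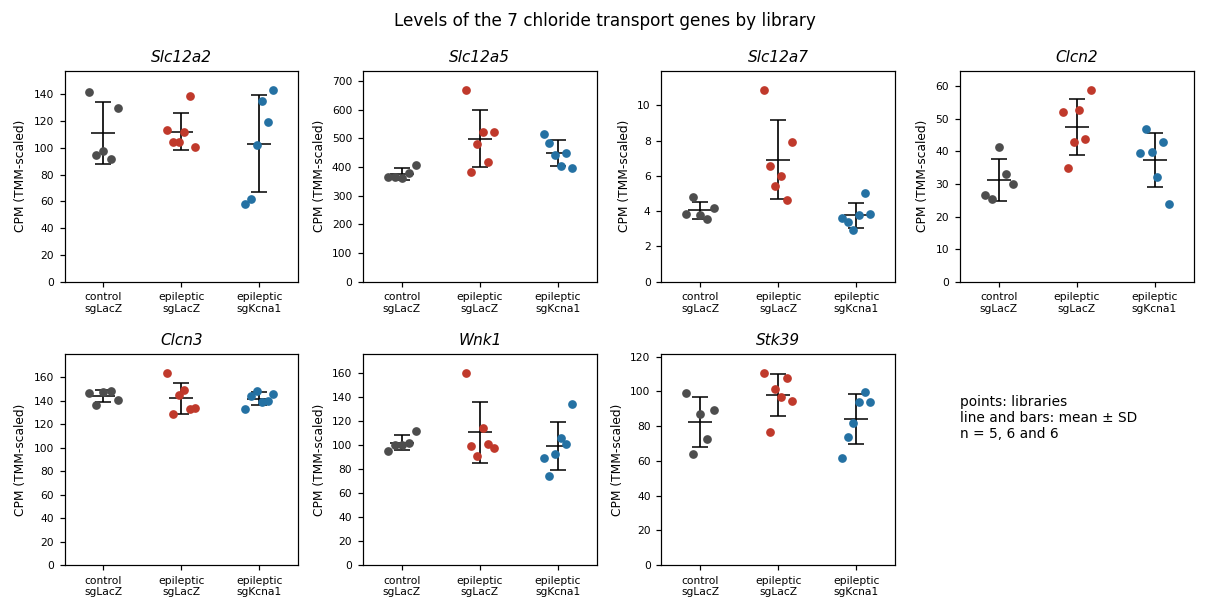
TMM-scaled CPM of each of the 7 genes in every library (points), with the mean and SD of each group (line and bars; n = 5, 6 and 6). Epileptic sgLacZ libraries stand above most control sgLacZ libraries for Slc12a5, Slc12a7 and Clcn2, whereas Clcn3 has means of 142 to 144 CPM in the 3 groups, with the widest spread in epileptic sgLacZ, and Slc12a2 is widely spread.

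The first comparison asked whether expression of these genes differed in chronic epilepsy without the Kcna1 guide. Slc12a5, Slc12a7 and Clcn2 were higher in epileptic sgLacZ than in control sgLacZ libraries, by 1.33-fold, 1.71-fold and 1.52-fold, respectively. Slc12a2, Clcn3, Wnk1 and Stk39 did not pass the threshold of an adjusted P of 0.05. Thus 3 of 7 genes were called, all higher, where 7.26% of all tested genes were called higher and 11.0% were called in either direction. At an unadjusted P under 0.05 the same 3 genes passed, against 34.7% of all genes. DESeq2 called 3 of the 7 (20.6% of all genes) and limma voom with quality weights called 4 (41.4% of all genes). With the share of unmapped reads as a covariate edgeR called 0 of the 7, and with sex as a covariate 0. The share of all genes called in those fits is not given here. The median log2 fold change was 0.25 over the 7 genes and 0.02 over all tested genes. None of the 7 separated the groups without overlap, which 4.39% of all tested genes did.

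Among the cotransporters, Slc12a5 is transcribed from alternative starts that give the KCC2a and KCC2b forms. The gene (ENSMUSG00000017740) spans chromosome 2, bases 164960846 to 164999731 (GRCm38.p6), and the deposited counts add up the reads of all its transcripts. Slc12a7 (ENSMUSG00000017756) spans chromosome 13, bases 73733052 to 73816754. The bases before the RefSeq starts of these cotransporter genes, the ones called in this comparison, are given here for GRCm38.p6, 5′ to 3′ on the + strand, from 250 to 31 bases before each start. The Slc12a7 starts in that table lie inside the span given for the gene and not at its outer end, and the window of another one, chr13:73763447-73763666, overlaps the one shown and is not printed. Capitals mark matches to an AP-1 motif or a GC box.
Slc12a5 first start, chr2:164960596-164960815: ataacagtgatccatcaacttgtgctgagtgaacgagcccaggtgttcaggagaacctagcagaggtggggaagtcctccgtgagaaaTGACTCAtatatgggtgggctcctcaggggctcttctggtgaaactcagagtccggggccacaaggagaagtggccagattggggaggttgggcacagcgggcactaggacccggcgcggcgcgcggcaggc
Slc12a5 second start, chr2:164967738-164967957: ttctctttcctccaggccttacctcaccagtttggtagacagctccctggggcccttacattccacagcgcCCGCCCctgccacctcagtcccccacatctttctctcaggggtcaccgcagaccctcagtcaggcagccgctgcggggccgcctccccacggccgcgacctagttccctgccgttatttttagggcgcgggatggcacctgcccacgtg
Slc12a7 start inside the gene, chr13:73763410-73763629: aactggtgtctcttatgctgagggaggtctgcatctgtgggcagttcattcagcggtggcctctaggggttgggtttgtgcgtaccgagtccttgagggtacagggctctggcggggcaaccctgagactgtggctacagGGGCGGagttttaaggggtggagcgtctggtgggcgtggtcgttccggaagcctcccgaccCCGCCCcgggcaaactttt

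Motifs searched on both strands were GCGTGGGCG (bound by EGR factors), TGACGTCA (the cAMP response element, CRE), TGANTCA (AP-1) and GGGCGG (the GC box), and the EGR motif can share bases with a GC box. The window of the first Slc12a5 start held an AP-1 match at 162 bases before the start, a motif found in 6.12% of 32817 such windows, and the window of the second start held a GC box at 179 bases, a motif found in 28.5%. The Slc12a7 start shown had GC boxes at 110 and 49 bases, and the overlapping one had them at 147, 86 and 55 bases. No EGR or CRE match, found in 0.448% and 1.14% of windows, was present in any of the 4 windows. These matches describe the sequence, and the counts do not separate the starts.

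Slc12a5, the chloride extruder, had 362, 364, 365, 379 and 409 CPM in the control sgLacZ libraries. Its level in epileptic sgLacZ libraries ran from 385 CPM over a median of 502 to 669 CPM. Of the 6 epileptic sgLacZ libraries 5 lay above every control, replicate 4 was the highest and replicate 5 fell within the control range, so that the groups overlapped at 1 library. Means were 376 ± 19.6 (SD, n = 5) and 499 ± 100.3 CPM (SD, n = 6), and the log2 fold change was 0.41 (SE 0.12, edgeR quasi-likelihood F test, Benjamini-Hochberg adjusted P = 0.0423). Replicate 4 also had the largest sum of neuronal markers, 8796 CPM, and the smallest share of unmapped reads, 11.0%. With the share of unmapped reads as a covariate the log2 fold change was 0.27 (edgeR adjusted P = 0.113). The call was also lost with sex as a covariate, at 0.40 (edgeR adjusted P = 0.0602), and without the filter on low counts, at 0.44 (edgeR adjusted P = 0.0540). Leaving out any of 11 libraries moved the adjusted P past the threshold, to between 0.0518 and 0.104 (edgeR quasi-likelihood test). These were epileptic sgLacZ replicates 4, 6, 7 and 9, epileptic sgKcna1 replicates 3 and 10, and each of the control replicates 13, 14, 15, 16 and 23, and the log2 fold change was lowest, 0.31, without epileptic sgLacZ replicate 4.

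Slc12a7 encodes KCC4, a potassium-chloride cotransporter that is low in adult forebrain neurons and is known for its role in the inner ear and kidney. Control sgLacZ libraries had 3.53, 3.805, 3.84, 4.18 and 4.83 CPM, and epileptic sgLacZ libraries ran from 4.65 over a median of 6.28 to 10.9 CPM. Again 5 of 6 epileptic sgLacZ libraries lay above every control, replicate 4 being the highest, and replicate 8 fell below the highest control. The log2 fold change was 0.77 (SE 0.21, edgeR quasi-likelihood F test, Benjamini-Hochberg adjusted P = 0.0355). With the covariate for unmapped reads it was 0.66 (edgeR adjusted P = 0.0904), and with that for sex 0.72 (edgeR adjusted P = 0.0544). The call was lost without epileptic sgLacZ replicates 4, 7 or 9, or without any of the control replicates 13, 14, 15, 16 and 23, with edgeR adjusted P values of 0.0557 to 0.0947. Without replicate 4 the log2 fold change was 0.60.

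Slc12a2 (ENSMUSG00000024597; chromosome 18 from 57878512 to 57946821), the chloride importer, did not pass the threshold. Its control values were 92.0, 94.8, 97.6, 130.0 and 141 CPM, and its epileptic sgLacZ values ran from 101 over a median of 108 to 138 CPM. All 6 epileptic sgLacZ libraries lay inside the control range, while control replicates 13 and 23 stood well above the other 3 controls. The difference on the log2 scale was 0.01, with a 95% interval from -0.42 to 0.44 (edgeR quasi-likelihood F test, Benjamini-Hochberg adjusted P = 0.975). NKCC1 is abundant in the choroid plexus epithelium, and the libraries highest in Slc12a2 within the sgLacZ groups, control replicate 13 and epileptic sgLacZ replicate 8, were also the highest in the sum of 8 choroid plexus markers. That sum ranged from 1477 to 14050 CPM in control sgLacZ, from 5969 to 13480 in epileptic sgLacZ and from 458 to 9119 in epileptic sgKcna1 libraries, and 0 of 8 markers were called by edgeR in this comparison, with 0 at an unadjusted P under 0.05, 0 called by DESeq2 and 1 by limma voom. Log2 fold changes of the 8 markers in this comparison ran from 0.21 to 1.21, with a median of 0.57. The part of the choroid plexus in the Slc12a2 values was not tested.

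**Figure D2:**
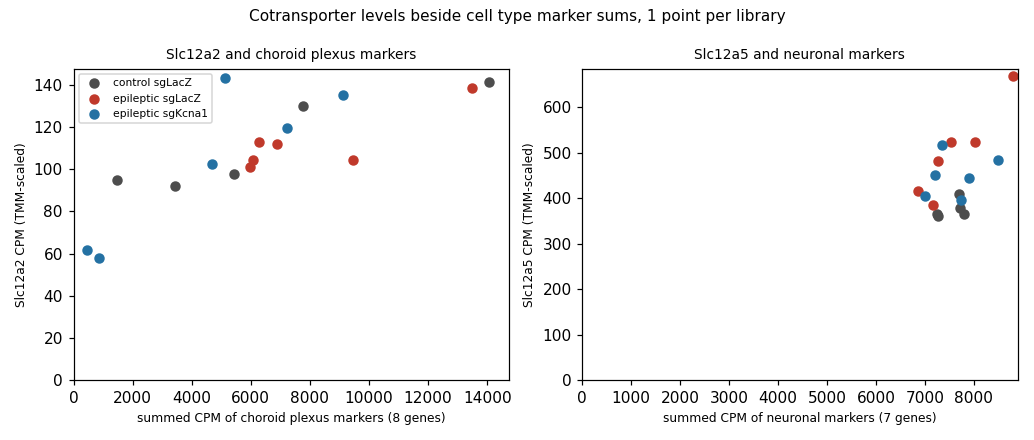
Each point is a library, coloured by group. Left, Slc12a2 CPM against the summed CPM of 8 choroid plexus markers; epileptic sgKcna1 replicates 1 and 2 are lowest on both axes, and control replicate 13 is high on both. Right, Slc12a5 CPM against the summed CPM of 7 neuronal markers; epileptic sgLacZ replicate 4 is highest on both axes.

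Of the ClC genes, Clcn2 (ENSMUSG00000022843; chromosome 16 from 20702435 to 20717746) was called, with a limit that comes from its position. Its CPM were 25.4, 26.6, 30.0, 33.0 and 41.3 in control sgLacZ and ran from 34.9 over a median of 47.9 to 58.9 in epileptic sgLacZ libraries. Again 5 of 6 epileptic sgLacZ libraries exceeded every control, and replicate 5 fell below control replicate 15. The log2 fold change was 0.60 (SE 0.17, edgeR quasi-likelihood F test, Benjamini-Hochberg adjusted P = 0.0396). The end of Clcn2 overlaps Fam131a, so reads in the shared stretch were counted for neither gene, and the counts of both strands added up to 2.10 times the unstranded count. When the strand counts were added, so that reads of Fam131a entered, the log2 fold change was -0.38 (edgeR adjusted P = 0.0650), and Fam131a itself, with 699 ± 41.7 CPM (SD, n = 5) in control and 616 ± 79.2 (SD, n = 6) in epileptic sgLacZ libraries, had a log2 fold change of -0.18 (edgeR adjusted P = 0.238). The value of Clcn2 therefore rests on the part of the gene outside the overlap and is uncertain. With the covariate for unmapped reads the log2 fold change was 0.37 (edgeR adjusted P = 0.0705), and with that for sex it was 0.64 (edgeR adjusted P = 0.0515). Without epileptic sgLacZ replicates 4, 6, 7 or 9 or control replicates 13, 14, 16 or 23 the edgeR adjusted P lay between 0.0502 and 0.104.

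Clcn3 (ENSMUSG00000004319; chromosome 8 from 60910389 to 60983317) was the most even of the 7 genes. Control values were 136, 140.2, 146, 147 and 148 CPM, and epileptic sgLacZ values ran from 128 over a median of 139 to 163 CPM. The epileptic sgLacZ libraries lay on both sides of the control range. On average the log2 fold change was -0.02, with a 95% interval from -0.18 to 0.14 (edgeR quasi-likelihood F test, Benjamini-Hochberg adjusted P = 0.894), the narrowest interval among the 7 genes.

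Neither kinase passed the threshold. Wnk1 (ENSMUSG00000045962; chromosome 6 from 119923969 to 120038695) had 94.9, 99.6, 100.2, 102 and 112 CPM in control sgLacZ and ran from 91.1 over a median of 99.9 to 159.6 CPM in epileptic sgLacZ libraries. Replicate 4 stood apart from the other 5 epileptic sgLacZ libraries, which reached at most 114 CPM. The log2 fold change of Wnk1 was 0.12 (SE 0.15, edgeR quasi-likelihood F test, Benjamini-Hochberg adjusted P = 0.585), and it was -0.02 without that replicate. Stk39 (ENSMUSG00000027030; chromosome 2 from 68210445 to 68472108) had 63.8, 72.4, 86.9, 89.3 and 99.3 CPM in control sgLacZ and ran from 76.4 over a median of 98.9 to 110.5 CPM in epileptic sgLacZ libraries. Of the 6 epileptic sgLacZ libraries 3 exceeded every control. Its log2 fold change was 0.25 (SE 0.14, edgeR quasi-likelihood F test, Benjamini-Hochberg adjusted P = 0.199), and it was called by limma voom (adjusted P = 0.0462) but not by DESeq2 (adjusted P = 0.224).

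**Figure D3:**
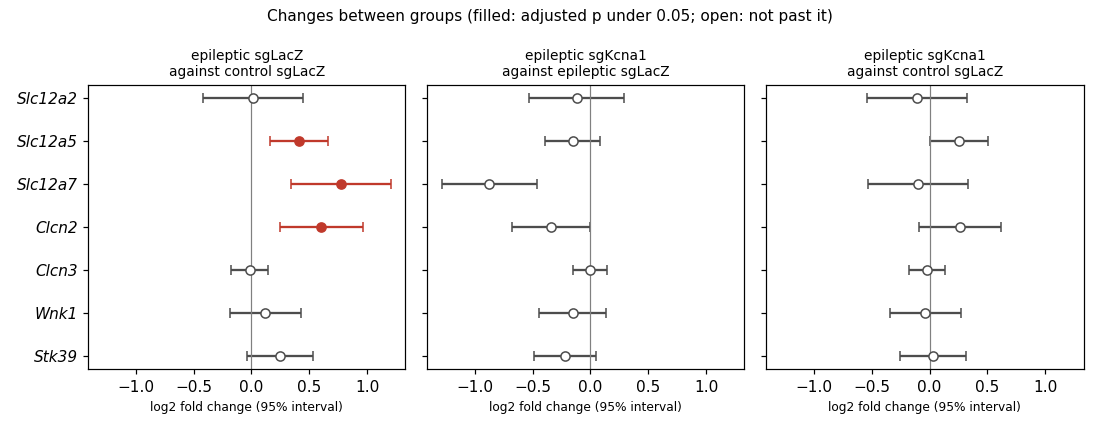
Log2 fold changes of the 7 genes in the 3 comparisons, with 95% intervals from the edgeR fit; filled points have an adjusted P under 0.05. Slc12a5, Slc12a7 and Clcn2 are filled in the first panel only, and the other panels hold no filled point; the difference between comparisons was not tested.

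The second comparison asked whether the genes differed between epileptic mice with sgKcna1 and epileptic mice with sgLacZ. No gene was called by edgeR, either among the 7 or among all genes tested (0%). Slc12a7 had the largest difference of the 7, 0.545 times its level in epileptic sgLacZ libraries. At an unadjusted P under 0.05 there were 2 of the 7, Slc12a7 and Clcn2, both lower, where 10.5% of all tested genes were lower and 19.2% passed in either direction at that level. DESeq2 called 1 of the 7, Slc12a7, against 0.761% of all genes, and limma voom called 0 of the 7, against 0.0681% of all genes. The median log2 fold change was -0.16 over the 7 genes and -0.0059 over all tested genes. The epileptic sgLacZ libraries serve in both this comparison and the first, so that a high value in them raises 1 difference and lowers the other.

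In epileptic sgKcna1 libraries Slc12a7 ran from 2.94 over a median of 3.69 to 5.04 CPM. Of these 6 libraries 5 lay below every epileptic sgLacZ library, and replicate 11, the highest, lay above epileptic sgLacZ replicate 8. Means were 3.77 ± 0.702 (SD, n = 6) against 6.91 ± 2.23 CPM (SD, n = 6), and the log2 fold change was -0.88 (SE 0.20) with an unadjusted P of 0.00028 in the edgeR quasi-likelihood test and a Benjamini-Hochberg adjusted P of 0.213. The smallest adjusted P of any gene in this comparison was 0.0815. DESeq2 gave an adjusted P of 0.0148 and limma voom one of 0.0551. Leaving out epileptic sgLacZ replicate 5 brought the edgeR adjusted P to 0.0407, with a log2 fold change of -0.89.

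Slc12a5 in epileptic sgKcna1 libraries ran from 396 over a median of 447 to 517 CPM, all within the range of the epileptic sgLacZ libraries. The log2 fold change was -0.15, with a 95% interval from -0.39 to 0.09 (edgeR quasi-likelihood F test, Benjamini-Hochberg adjusted P = 0.430). Slc12a2 ran from 57.8 over a median of 111 to 143 CPM. Replicates 1 and 2, at 57.8 and 61.6 CPM, stood far below all other libraries of the series, and the same libraries had the lowest sums of choroid plexus markers, 855 and 458 CPM, and the lowest sums of oligodendrocyte markers, 2842 and 4887 CPM. The log2 fold change of Slc12a2 was -0.12, with a 95% interval from -0.53 to 0.29 (edgeR adjusted P = 0.743). Of the 8 choroid plexus markers 0 were called in this comparison by edgeR, DESeq2 or limma voom, and 3 were lower at an unadjusted P under 0.05 in edgeR. Log2 fold changes of the 8 ran from -1.49 to -0.43, with a median of -0.95. Replicate 12 had the highest Slc12a2 of the series, 143 CPM, and the largest share of unmapped reads, 41.5%. Its choroid plexus sum was 5112 CPM, below the 9119 and 7228 CPM of replicates 10 and 11. The part of these cell types in the difference was not tested.

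Clcn2 ran from 23.8 over a median of 39.6 to 46.7 CPM in epileptic sgKcna1 libraries, and 2 of 6 lay below all epileptic sgLacZ libraries. The lowest value came from replicate 12, the library with the largest share of unmapped reads, 41.5%. The log2 fold change of Clcn2 was -0.34 (SE 0.16), with an unadjusted P of 0.0485 in the edgeR quasi-likelihood test and an adjusted P of 0.258. With both strand counts added the sign changed, to 0.19 (edgeR adjusted P = 0.408). Clcn3 differed least, with a range of 133 to 148 CPM, a log2 fold change of -0.0045 and a 95% interval from -0.16 to 0.15 (edgeR adjusted P = 0.975). Wnk1 ran from 73.8 over a median of 96.3 to 134 CPM, overlapping the epileptic sgLacZ libraries widely, and its log2 fold change was -0.16 (SE 0.14, edgeR adjusted P = 0.517). Stk39 ran from 61.7 over a median of 87.8 to 99.5 CPM. Of its 6 libraries 2 lay below every epileptic sgLacZ library, and the log2 fold change was -0.22 (SE 0.13, edgeR adjusted P = 0.329).

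The third comparison set epileptic mice with sgKcna1 against controls with sgLacZ, which differ both in epilepsy and in the guide. No gene was called by edgeR among the 7 or among all genes (0%), and 1 of the 7 had an unadjusted P under 0.05, against 4.29% of all genes higher and 6.77% in either direction at that level. DESeq2 called 0 of the 7 (0.221% of all genes) and limma voom called 0 (0.403% of all genes). That 1 gene was Slc12a5, of which 4 of 6 epileptic sgKcna1 libraries exceeded every control. Its means were 449 ± 46.1 (SD, n = 6) and 376 ± 19.6 CPM (SD, n = 5), and the log2 fold change was 0.26 (SE 0.12) with a 95% interval from 0.0036 to 0.51 and an adjusted P of 0.733 in the edgeR quasi-likelihood test. Slc12a7, in contrast, had a mean of 3.77 CPM in epileptic sgKcna1 against 4.04 CPM in control libraries, a log2 fold change of -0.10 with a 95% interval from -0.54 to 0.33 (edgeR adjusted P = 0.920). The log2 fold changes of the other genes were 0.27 for Clcn2, 0.03 for Stk39, -0.02 for Clcn3, -0.04 for Wnk1 and -0.11 for Slc12a2, with edgeR adjusted P values of 0.771 to 0.969.

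The relative transcript level of extruder and importer was then described as the ratio of Slc12a5 to Slc12a2 CPM in each library. In bulk tissue the 2 transcripts need not come from the same cells, so the ratio does not measure the balance within neurons. It was 2.58, 3.15, 3.71, 3.85 and 4.12 in control sgLacZ libraries. In epileptic sgLacZ libraries it ran from 3.01 over a median of 4.65 to 5.92, and in epileptic sgKcna1 libraries from 2.76 over a median of 4.04 to 8.94. The groups overlapped, and the 2 highest ratios, 8.94 and 7.85, belonged to epileptic sgKcna1 replicates 1 and 2, the libraries lowest in Slc12a2 and in choroid plexus markers. On the log2 scale the ratio was 1.78 ± 0.27 (SD, n = 5) in control sgLacZ libraries. The epileptic sgLacZ libraries averaged 2.14 ± 0.35 (SD, n = 6), and the epileptic sgKcna1 libraries 2.20 ± 0.71 (SD, n = 6). The ratio received no test, because it combines genes chosen for their place in the pathway.

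**Figure D4:**
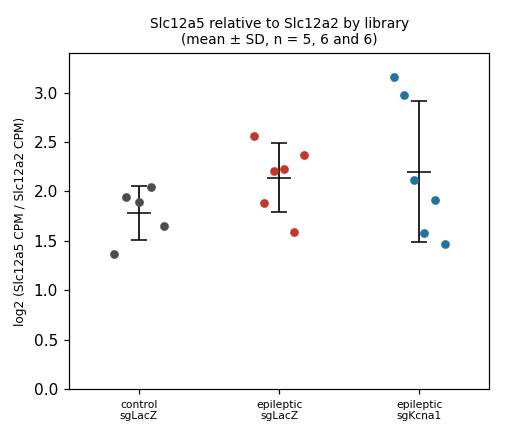
Log2 ratio of Slc12a5 to Slc12a2 CPM in each library (points), with the mean and SD of each group (n = 5, 6 and 6). The groups overlap, and epileptic sgKcna1 libraries spread from 1.47 to 3.16.

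Genes whose levels over the 17 libraries were most like those of the cotransporters differed between extruder and importer. Among 9317 genes with a mean of at least 5 CPM, the closest to Slc12a5 by Pearson correlation of log2 CPM were Ppp2r5e, a regulatory subunit of protein phosphatase 2A, with r = 0.980, Pacsin1, an adaptor in endocytosis, with 0.974, and Jag2, a Notch ligand, with 0.967. For Slc12a2 they were Pcolce2, an enhancer of procollagen processing, with r = 0.936, 1500015O10Rik with 0.931 and Col8a1, a collagen chain, with 0.930. These libraries share their groups, depth and tissue make-up, so the correlations are given as a description.

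Other genes of chloride handling were counted from 6 lists with 46 genes in all, of which 39 passed the filter. In epileptic sgLacZ against control sgLacZ libraries, edgeR called 4 of the 39, all higher, which is 10.26% beside 11.0% over all genes. DESeq2 called 8 (20.6% of all genes) and limma voom called 16 (41.4% of all genes). The median log2 fold change was 0.07 over the 39 genes. The 4 were Slc4a3, a chloride-bicarbonate exchanger (log2 fold change 0.95, SE 0.24, edgeR adjusted P = 0.0333), Wnk2, a relative of Wnk1 (0.74, SE 0.21, edgeR adjusted P = 0.0395), Clcn7, the lysosomal chloride-proton exchanger (0.54, SE 0.13, edgeR adjusted P = 0.0328), and Clcn6, a late endosomal exchanger (0.39, SE 0.13, edgeR adjusted P = 0.0499). Each of them was above every control in 5 of the 6 epileptic sgLacZ libraries. The call of Clcn6 was lost in 5 of 9 alternatives and in 14 of 17 fits that left out 1 library, with log2 fold changes of 0.25 to 0.45. Wnk2 lost its call with the covariate for unmapped reads (edgeR adjusted P = 0.0778), with that for sex (edgeR adjusted P = 0.0525) and in 9 of 17 fits with 1 library left out. Clcn7 lost it with the covariate for unmapped reads (edgeR adjusted P = 0.05002) and in 7 of 17 such fits, and Slc4a3 in 7 of 17 and in 0 of 9 alternatives. By list, edgeR called 2 of 8 other ClC proteins and partners, 1 of 6 bicarbonate exchangers and carbonic anhydrases, 1 of 11 other WNK pathway genes, 0 of 4 other SLC12 cotransporters, 0 of 6 volume-regulated or calcium-activated channels and 0 of 4 partners and proteases of KCC2. At an unadjusted P under 0.05 the lists without a call had 1, 3 and 2 genes, DESeq2 called 1, 1 and 0 of them, and limma voom called 2, 3 and 2.

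**Figure D5:**
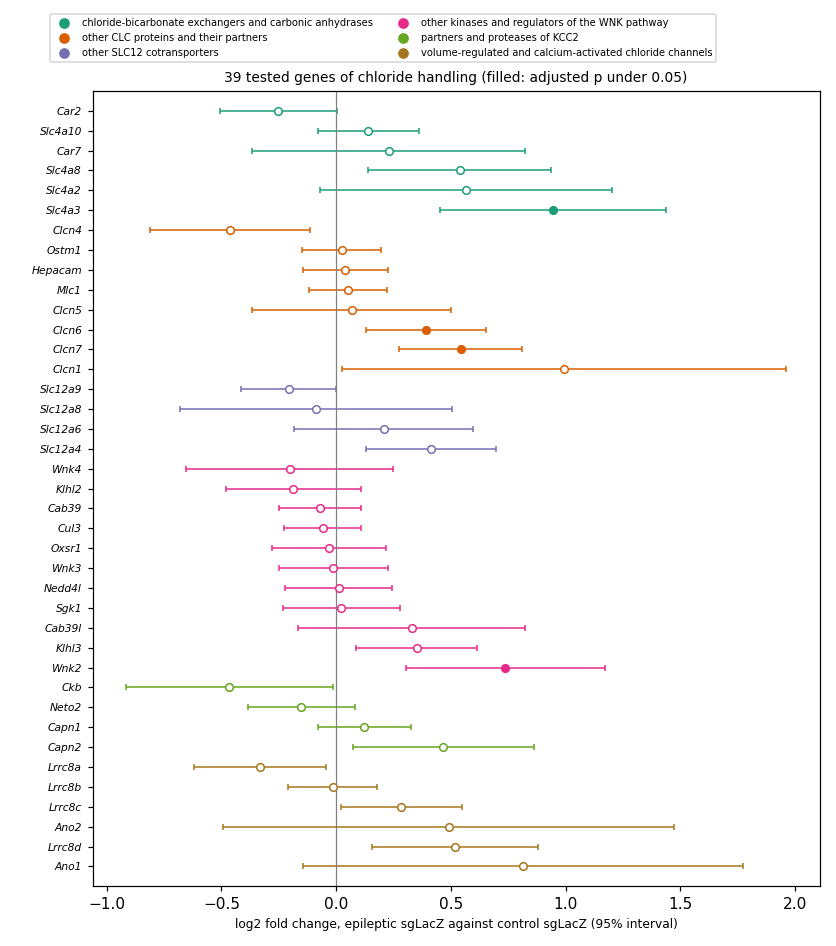
Log2 fold changes, epileptic sgLacZ against control sgLacZ, of the 39 tested genes from 6 lists of chloride handling (colours), with 95% intervals from the edgeR fit. The 4 filled points, Slc4a3, Wnk2, Clcn7 and Clcn6, have an adjusted P under 0.05 and lie to the right of 0.

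For epileptic sgKcna1 against epileptic sgLacZ libraries, edgeR, DESeq2 and limma voom each called 0 of the 39, with 12 at an unadjusted P under 0.05 in edgeR, 3 higher and 9 lower, where 19.2% of all tested genes passed in either direction and 10.5% were lower. The smallest P values belonged to Neto2, an auxiliary protein of kainate receptors and KCC2 (log2 fold change 0.31, SE 0.11), Slc4a2, a chloride-bicarbonate exchanger (-0.84, SE 0.29), and Slc12a4, which encodes KCC1 (-0.35, SE 0.13), all of which had an adjusted P of 0.213 in edgeR. Strand counts of Slc4a2 and Slc12a4 added up to 1.34 and 1.22 times the unstranded count, so their values are uncertain in the same way as that of Clcn2. Against control sgLacZ libraries, the 3 tools again called 0 of the 39, with 1 at an unadjusted P under 0.05 in edgeR, beside 6.77% of all genes. Slc4a3 (0.53, SE 0.23, edgeR adjusted P = 0.711), Wnk3 (0.22, SE 0.11, edgeR adjusted P = 0.766) and Clcn7 (0.24, SE 0.13, edgeR adjusted P = 0.766) had the smallest P values there. Among the genes that did not pass the filter, Slc12a1, Slc12a3, Slc4a1 and Lrrc8e had at most 11 reads in any library.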

How the data were processed

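The 17 RNA-seq libraries were made from mouse hippocampi, and groups and replicate numbers were taken from each sample's label. Per the labels, reads were aligned with STAR 2.7 to mm10. The authors deposited unnormalized read counts per gene, for both strands together and for each strand, leaving out multimapping reads. Unstranded counts were used, because both strands held nearly equal numbers of reads (ratio 0.994 to 0.998). A kit that does not mark strand is named in the labels, a stranded one in the methods. The annotation release is not given in the sources used here.

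Tests used edgeR 4.0.16 under R 4.3.3: filterByExpr by group, which left 17615 genes, TMM scaling, 1 fit of all 17 libraries with a coefficient per group, and two-sided quasi-likelihood F tests with Benjamini-Hochberg adjustment over all genes tested and a threshold of 0.05. The scripts were tested on simulated data. Alternatives were DESeq2 1.42.0, limma 3.58.1 voom with quality weights, DESeq2 size factors, no filter, both strand counts added, covariates for unmapped reads or for sex read from the counts, only the groups compared, and each library left out in turn. The chloride transport genes and all lists were chosen with earlier results of these data known. The 7 genes were always named; of the other lists, called genes were named, or the 3 with the smallest P where fewer than 3 were called, and for Slc12a2 and Slc12a5 the 3 genes most alike over the libraries with strand counts adding up to at most 1.05 times the unstranded count. Gene positions and start windows are from RefSeq for GRCm38.p6, and transcript lengths from an older mouse annotation. Pairs of libraries of 1 group differed by 8.67 to 220 times sampling noise (chi-square per degree of freedom, 40 pairs), so none was treated as a copy.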

Additional observations from a re-analysis of the deposited data

Results flagged for a closer look

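The 7 genes, Kcna1, Fam131a and the ratio of Slc12a5 to Slc12a2 were examined for single libraries far from the rest, which gave 30 sets, each a measure in a group. In 3 of them the gap between the highest library and its nearest neighbour, divided by the whole range, exceeded Dixon's 95% limit, and chance alone flags about 1 in 20 sets.

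Slc12a2 in epileptic sgLacZ replicate 8 was 138.4 CPM, where the nearest of the other 5 libraries of the group had 113 CPM (gap over range 0.675). The same library had the largest sum of choroid plexus markers in its group, 13480 CPM. Wnk1 in epileptic sgLacZ replicate 4 was 159.6 CPM, where the nearest of the others had 114 CPM (gap over range 0.669). That library was also the highest of its group in Slc12a5, Slc12a7, Clcn3 and Stk39, and it had the smallest share of unmapped reads, 11.0%. The part of these properties in the values was not tested. Kcna1, the targeted gene, had 132.5 CPM in epileptic sgKcna1 replicate 12, where the nearest of the others had 29.5 CPM (gap over range 0.868). Replicate 12 had the largest share of unmapped reads of the series, 41.5%, and the part of that share in the Kcna1 value was not tested.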

How the results depend on the processing

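Of the 7 genes in epileptic sgLacZ against control sgLacZ libraries, 3 were called in the reported analysis, and 0 with the covariate for unmapped reads and 0 with that for sex. Leaving out 1 library at a time gave 0 to 3 calls. Of the 39 other genes of chloride handling 4 were called, against 8 with DESeq2, 16 with limma voom, 8 with both strand counts added, 1 with the covariate for unmapped reads, 2 with that for sex and 7 without the libraries lowest and highest in unmapped reads, an alternative chosen after seeing the data. Leaving out 1 library gave 0 to 13. For epileptic sgKcna1 against epileptic sgLacZ libraries DESeq2 called 1 of the 7, and leaving out 1 library gave 0 to 1 of the 7 and 0 to 0 of the 39. For epileptic sgKcna1 against control sgLacZ libraries the covariate for unmapped reads gave 1 call among the 39, and leaving out 1 library gave 0 to 0 in both sets. The share of all tested genes called is given above only for the reported edgeR fit, DESeq2 and limma voom. For the other fits it is not given, so their counts cannot be read as particular to these genes. The difference in mean log2 ratio of Slc12a5 to Slc12a2 was 0.36 for epileptic sgLacZ minus control sgLacZ (0.26 to 0.47 with 1 library left out), 0.06 for epileptic sgKcna1 minus epileptic sgLacZ (-0.13 to 0.21) and 0.42 for epileptic sgKcna1 minus control sgLacZ (0.23 to 0.57).

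Signs of log2 fold changes turned as follows. For epileptic sgLacZ against control sgLacZ, Slc12a2 was -0.00096 with both strand counts and -0.024 with sex, Clcn2 -0.38 with both strand counts, Clcn3 0.0063 without a filter, Wnk1 -0.010 by limma voom and -0.020 without the libraries lowest and highest in unmapped reads, and Kcna1 0.44 with the covariate for unmapped reads. For epileptic sgKcna1 against epileptic sgLacZ, Slc12a5 was 0.0052 with the covariate for unmapped reads and Clcn2 0.19 with both strand counts. Clcn3 there was 0.0024 by DESeq2, 0.0056 by limma voom, 0.0036 with DESeq2 size factors, 0.0070 with both strand counts, 0.028 with the covariate for unmapped reads, 0.014 with sex and 0.029 without the libraries lowest and highest in unmapped reads. Kcna1 there was -0.31 by limma voom, -0.85 with the covariate for unmapped reads and -0.37 without those libraries. For epileptic sgKcna1 against control sgLacZ, Clcn2 was -0.20 with both strand counts, Stk39 -0.011 without those libraries, and Kcna1 -0.82 by limma voom, -0.41 with the covariate for unmapped reads, -0.13 with sex and -0.87 without those libraries. With 1 library left out, values that took both signs ran, for epileptic sgLacZ against control sgLacZ, from -0.058 to 0.11 for Slc12a2, from -0.061 to 0.011 for Clcn3 and from -0.016 to 0.17 for Wnk1. For epileptic sgKcna1 against epileptic sgLacZ they ran from -0.24 to 0.0064 for Slc12a2, from -0.032 to 0.043 for Clcn3 and from -0.65 to 0.62 for Kcna1, and against control sgLacZ from -0.23 to 0.016 for Slc12a2, from -0.051 to 0.10 for Stk39, from -0.15 to 0.036 for Wnk1 and from -0.87 to 0.29 for Kcna1. The cause was not tested, except that adding both strand counts brings reads of Fam131a into Clcn2. Slc12a5 and Slc12a7 stayed higher in epileptic sgLacZ than in control sgLacZ libraries under all these alternatives. No paired analysis was possible because the groups share no replicate numbers. Depth limits Slc12a7 most, at 41 to 319 reads per library.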
